A study of Mus musculus with 8 samples.

Results

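The acute response to hair plucking was examined by setting the array taken 12 h after wax plucking against the mean of the arrays taken at 1 d and 2 d. These were 3 of the 8 arrays of the series, chosen by the time in their titles, and the shaved control was not used. The tissue came from the back of female C57BL/6 mice, an inbred laboratory strain, whose hair follicles were all in the resting phase (telogen) when the coat was pulled out with wax. The labels give an age of 10 weeks for the 12 h, 1 d and 2 d mice, and all had been plucked. The sample labels call the material adipose cells, while the series' design speaks of fat together with dermis, collected after a second waxing. No genotype, transgene or drug is given. Each time has 1 array of 1 colour, hybridised on the same slide, so no difference below has a replicate, an error over mice or a test. The 1 d and 2 d arrays are different times and not replicates, and both are given beside their mean.

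Plucking removes the hair shaft and part of its root sheath and injures the follicle wall without cutting the skin. Injured keratinocytes and local immune cells then release chemokines that call in neutrophils first and monocytes later, while keratinocytes at the wound edge switch on stress keratins and barrier proteins. The dermal fat beneath the follicles consists of adipocytes that store triglyceride and secrete adiponectin, and resident or arriving blood cells lie among them.

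Values are log2 levels relative to the 75th percentile of each array's processed signals, so that a level of 0 lies at that percentile, and each gene is represented by its brightest probe. A gene was counted when 12 h differed by at least 2-fold from the mean of 1 d and 2 d and the brighter side was well above background by the scanner software. Of 29391 genes measured, 745 were higher at 12 h (2.53%) and 307 were lower (1.04%), so 70.8% of the counted genes were higher. The rule is not symmetric, since a higher gene needed signal at 12 h alone and a lower gene at both 1 d and 2 d. With no filter on background 51.8% of the counted genes were higher. At least 2-fold from both single times were 518 genes on the higher side (1.76%) and 158 on the lower side (0.538%). The 1 d and 2 d arrays differed from each other at 298 genes higher at 2 d (1.04%) and 372 lower at 2 d (1.3%). The median difference of 12 h over all genes was -0.06 on the log2 scale. Counts in gene lists below stand beside the shares of all genes, 2.53% higher and 1.04% lower, also where these are not repeated. The smallest counted difference on the higher side was 1.002 and the largest not counted was 0.9996. Of the 745 higher genes, 558 also had their highest level of all 7 plucked arrays at 12 h (1.9% of all genes). Of the 307 lower genes, 169 had their lowest level there (0.575%). The 7 arrays include the 3 compared, so such ranks are not independent of the differences, here and in the lists below. For 227 of the higher genes neither the 1 d nor the 2 d array was well above background, and for these a fold is given only as a bound. Such a gene was counted by its plain difference, so its bound can lie below 2-fold. Where only 1 of these 2 arrays was not well above background, a plain fold is given, which rests partly on that dim signal.

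The share of spots well above background was 80.2% at 12 h, 75.3% at 1 d and 76.4% at 2 d, with no saturated spot. The 10 spots of a repeated probe had a median SD of 0.09 at 12 h and 0.07 at 1 d and 2 d (log2). Where a gene had several probes, their 12 h differences had a median SD of 0.13 (log2). The first is a technical error, while the second also holds differences between the probes of a gene. The second is a median over 8209 genes, and some named genes disagreed far more, such as Tnfrsf13c at 0.10 and 5.59. The spread between mice is unknown. Pearson's r across genes, which are not independent replicates, was 0.987 between 12 h and 1 d, 0.985 between 12 h and 2 d, and 0.992 between 1 d and 2 d. The adipose label was borne by high levels of fat genes on all 3 arrays, with the fatty acid binding protein gene Fabp4 at 8.44 at 12 h, 8.84 at 1 d and 8.71 at 2 d. Skeletal muscle genes were bright too, with the fast myosin gene Myh4 at 8.49 at 12 h, 8.83 at 1 d and 8.72 at 2 d, so the samples also held RNA of other tissues. In bulk tissue, more cells of a type and more RNA per cell cannot be told apart.

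**Figure D1:**
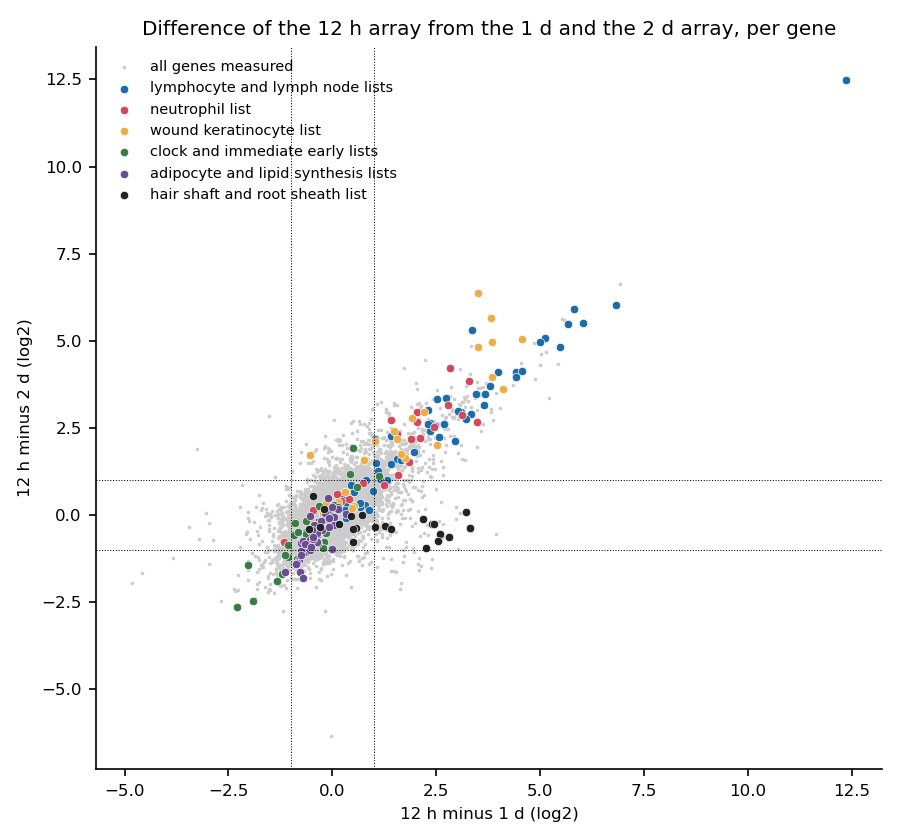
Each point is a gene, with its level at 12 h minus that at 1 d on the horizontal axis and minus that at 2 d on the vertical axis, both in log2 units. Dotted lines mark 2-fold. Coloured points are members of the named gene lists. At least 2-fold above both times were 14 of 19 B cell, 16 of 29 T and NK cell, 11 of 13 lymph node, 14 of 24 neutrophil and 15 of 26 wound keratinocyte genes. Over all genes this share was 1.76%. Several clock and immediate early genes lie to the lower left, and several hair shaft genes to the right at a vertical value near 0. Glycam1 stands alone at the upper right corner.

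Genes of B cells and lymph node vessels were among the largest differences on the higher side, and T cell genes were higher beside them. Of 19 measured B cell genes 14 were higher and none lower, beside 2.53% of all genes, and their median difference was 3.75, or 2.48 with normexp, another background correction. Ms4a1, which encodes the B cell surface protein CD20, had levels of 2.03 at 12 h, -4.79 at 1 d and -4.01 at 2 d, and was 85.9-fold higher. Its signal at 1 d was not well above background. Cd79b, a signalling chain of the B cell receptor, had levels of 4.03 at 12 h, -1.46 at 1 d and -0.79 at 2 d, and was 35.6-fold higher. Both were high at 12 h alone, and their levels at 4 d to 50 d ran no higher than -2.61 for Ms4a1 and -0.23 for Cd79b. The partner chain Cd79a was 19.2-fold higher, and a second probe for it gave a difference of 1.48 on the log2 scale. Other B cell genes among the 12 largest differences of the whole array were the Fc receptor for IgM, Faim3 (now Fcmr), at 54.7-fold, the transcription factor Spib at 47.9-fold, and the follicle-homing chemokine receptor Cxcr5 at 34.4-fold. The Cxcr5 signal at 1 d was not well above background. Tnfrsf13c, the receptor for the B cell survival factor BAFF, was 48.0-fold higher by its brightest probe, while a second probe gave a difference of only 0.10 on the log2 scale. The probe for Ms4a1 lies at chr19:11325367-11325426 and that for Cd79b at chr11:106172780-106172839 in mm9.

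The T and NK cell list had a median difference of 1.28. Of its 29 measured members 16 were higher, beside 2.53% of all genes, and none lower. Cd3d, a chain of the T cell receptor complex, had levels of 1.59 at 12 h, -2.83 at 1 d and -2.37 at 2 d, and was 18.2-fold higher. The T cell kinase Lck was 10.6-fold higher and the adaptor Lat 8.69-fold. The nodal homing receptor Ccr7 had levels of 2.18 at 12 h, -0.11 at 1 d and -0.85 at 2 d. Of the 29 members, 23 had their highest level of the 7 plucked arrays at 12 h, against 11.5% of all genes, and for B cells these were 17 of 19. The chemokine receptor Ccr6 was 30.1-fold and the inhibitory receptor Btla 29.4-fold higher, with Btla not well above background at 1 d. The lymphocyte receptor Gpr174 was at least 10.6-fold higher by its brightest probe, while its second probe gave a difference of 1.86 on the log2 scale.

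Glycam1, a mucin of the high endothelial venules through which lymphocytes enter lymph nodes, had levels of 5.15 at 12 h, -7.22 at 1 d and -7.34 at 2 d. It was not well above background at 1 d or 2 d, and its difference was at least 1129-fold. Its probe lies at chr15:103393339-103393398 in mm9. Chst4, a sulfotransferase of the same venules, was at least 6.25-fold higher by the same kind of bound. Marco, a scavenger receptor of macrophages in the spleen and lymph node, had levels of 4.66 at 12 h, -1.16 at 1 d and -1.25 at 2 d, and was 58.2-fold higher. Ltb, the lymphotoxin subunit that lymphocytes make and lymph nodes need in order to form, was 31.4-fold higher, and its partner Lta 8.08-fold. The Lta signal at 1 d was not well above background. The B cell zone chemokine Cxcl13 had levels of 5.52 at 12 h, 4.10 at 1 d and 3.24 at 2 d. The T cell zone chemokine Ccl19 was 2.72-fold and the venule addressin Madcam1 2.28-fold higher by their brightest probes, while their other probes gave log2 differences down to 0.51 for Ccl19 and -0.17 for Madcam1.

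In all, 11 of 13 measured members of the lymph node stroma and venule list were at least 2-fold higher, and all 11 were higher than both single times. The sum of its members' linear levels, in which an array's 75th percentile counts as 1, was 126.1 at 12 h, 22.5 at 1 d and 13.9 at 2 d. For the B cell list these sums were 69.7 at 12 h, 14.7 at 1 d and 13.9 at 2 d, and for the T and NK cell list 76.5, 42.8 and 43.2 in the same order of times. At 1 d, 3 lymph node, 4 B cell and 1 T cell members were not well above background by their brightest probe. At 2 d these were 2, 1 and 1. At 12 h none lacked such signal, which held for every list. A gene well above background at 12 h alone counted as measured, and so did a gene well above background only at both 1 d and 2 d. Lack of signal at 12 h was thus possible, as in 58 of the 307 lower genes of the whole array. Since every list was alike in this, it says nothing particular of these lists. Further class II antigen presentation genes that B cells express were also higher, namely H2-Oa 13.1-fold, H2-Ob 6.23-fold and H2-DMb2 3.08-fold. The second H2-Ob probe gave a larger difference, at 4.07 on the log2 scale. These were 3 of 11 measured members of the class II list, whose median was 0.41. In the list of germinal centre and plasma cell genes only 1 of 12 was higher, 2010001M09Rik (now Mzb1), a chaperone of antibody-secreting cells, at 5.37-fold, and its median was 0.18. Lymphocyte and lymph node vessel genes thus stood high together on the 1 array at 12 h, and whether that piece of tissue held more lymph node than the others was not tested. Its part in the immune genes described next was not tested either.

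**Figure D2:**
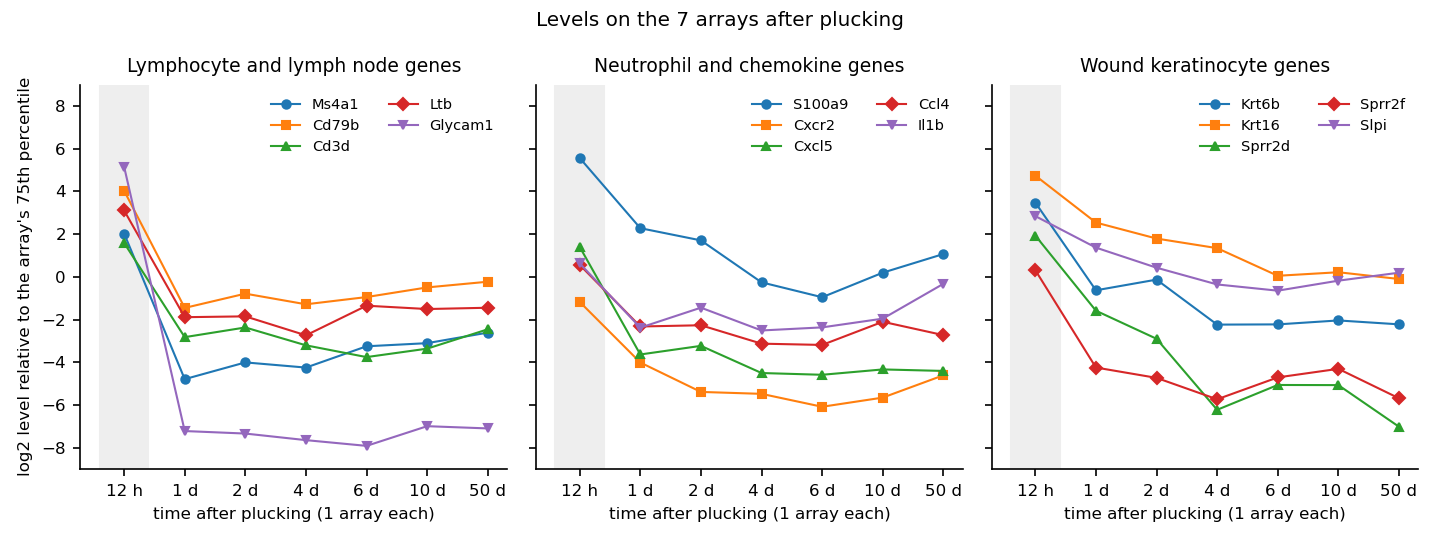
Levels of named genes on the 7 arrays after plucking, in log2 units relative to each array's 75th percentile, with 1 array at each time and the 12 h array shaded. Lymphocyte and lymph node genes stand high at 12 h and drop to their later range by 1 d, while S100a9, Krt16 and Slpi are still above their 4 d levels at 1 d and 2 d.

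Neutrophil genes were higher at 12 h, as 15 of 24 measured members passed 2-fold, beside 2.53% of all genes. Their median difference was 1.81, or 0.87 with normexp. S100a9, an alarmin that neutrophils store in bulk and injured keratinocytes also make, had levels of 5.56 at 12 h, 2.27 at 1 d and 1.70 at 2 d, and was 11.9-fold higher. Cxcr2, the receptor through which neutrophils follow chemokines, had levels of -1.18 at 12 h, -4.01 at 1 d and -5.39 at 2 d, and was 11.5-fold higher. The Cxcr2 signal at 2 d was not well above background. For both genes 12 h was the highest of the 7 plucked arrays, and 17 of 24 members shared that, against 11.5% of all genes. S100a8, the partner of S100a9, was 7.85-fold higher. The protease inhibitors Stfa1 and Stfa2l1 of the stefin A family were 8.48-fold and 7.99-fold higher, and since family members are alike in sequence these probes may share signal. Among 15 pairs of stefin A probes the longest shared run was 22 of 60 bases. Genes of neutrophil granules were less uniform, since myeloperoxidase, Mpo, was 2.59-fold higher, while the granule genes Elane and Ltf had differences of 0.07 and -0.96, and the surface marker Ly6g one of 0.36. Summed linear levels of the list were 299.9 at 12 h, 211.9 at 1 d and 198.7 at 2 d.

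Chemokines that draw neutrophils were higher in part. Cxcl5, a ligand of Cxcr2, had levels of 1.40 at 12 h, -3.64 at 1 d and -3.23 at 2 d, and was 28.5-fold higher. Of the other Cxcr2 ligands, Cxcl3 was higher by at least 3.97-fold and Cxcl1 by 2.61-fold. The neutrophil growth factor Csf3 was at least 1.24-fold higher. Csf3 was counted by its plain log2 difference of 1.76, although this bound lies below 2-fold. Cxcl2, another of these ligands, had levels of -3.38 at 12 h, -4.93 at 1 d and -3.53 at 2 d, so it was above 1 d and close to 2 d. Cxcl15, a chemokine of lung epithelium, was 2.57-fold lower. Of 13 measured members, 4 were higher and 1 lower, beside 2.53% and 1.04% of all genes, with a median of 0.43.

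Of 29 measured chemokines and receptors that act on other leukocytes, 11 were higher, beside 2.53% of all genes. None was lower, and the median was 0.70. The 11 higher genes include Ccl22, for which the bound was only 1.59-fold. Ccl4 and Ccl3, which attract monocytes and T cells, were 7.23-fold and 4.55-fold higher. Ccl4 had levels of 0.56 at 12 h, -2.33 at 1 d and -2.27 at 2 d. The interferon-induced T cell chemokine Cxcl10 was 6.46-fold higher, Ccl5 5.23-fold, and the monocyte chemokine Ccl2 3.19-fold. Of macrophage and monocyte markers 2 of 23 were higher, beside 2.53% of all genes, with a median of 0.36. Those 2 were Chi3l3, a chitinase-like protein of alternatively activated macrophages, at 8.13-fold, and the macrophage lectin Siglec1 at 2.83-fold. Siglec1 differed by 0.85 from 1 d and 2.15 from 2 d (log2), and its second probe gave a difference of 0.21. Vcam1, an adhesion molecule of activated vessels, was 2.66-fold higher and the only 1 of 6 members of the activated endothelium list past 2-fold.

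Among 32 measured mediators of the IL-1, TNF and IL-6 classes, 4 were higher, beside 2.53% of all genes, and the median was 0.07. Il1b, which encodes the cytokine IL-1 beta, had levels of 0.63 at 12 h, -2.38 at 1 d and -1.45 at 2 d, and was 5.81-fold higher. Its relative Il1f9 (now Il36g), made by stressed keratinocytes, was 2.80-fold higher, and Tnf was 2.16-fold higher. Of the 4 higher members only Il1b was at least 2-fold higher than both single times. Tnf differed by 1.41 from 1 d and 0.81 from 2 d, and Il1f9 by 0.99 from 1 d and 1.98 from 2 d (log2). The Il1f9 signal at 2 d was not well above background. Il6 had levels of -1.52 at 12 h, -2.63 at 1 d and -2.35 at 2 d, a difference of 0.97 that was just under the threshold.

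Acute phase genes, which the liver and inflamed tissues switch on downstream of such cytokines, were 10 of 31 higher and 1 lower. Over all genes these shares were 2.53% and 1.04%. Saa2, a serum amyloid A gene, had levels of 2.08 at 12 h, -0.16 at 1 d and -2.38 at 2 d, and was 10.2-fold higher. Serpina3g and Serpina3m, protease inhibitors of 1 gene cluster, were 4.49-fold and 4.44-fold higher, and the pattern recognition protein Ptx3 was 4.28-fold higher. For Saa2 and Serpina3m the level at 1 d lay between those at 12 h and 2 d. Fibrinogen beta, Fgb, was 2.21-fold lower. Of 22 measured matrix protease genes 5 were higher, and the list median was -0.07. The protease inhibitor Timp1 at 3.87-fold and the metalloprotease Mmp19 at 3.31-fold led the list. Only these 2 were at least 2-fold higher than both single times. The metal-binding metallothionein Mt2 had levels of 8.25 at 12 h, 7.48 at 1 d and 5.65 at 2 d, and was 3.22-fold higher, while the probes of its relative Mt1 disagreed in sign, at 1.41 and -0.998.

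Genes that keratinocytes switch on at wounds were higher, as 16 of 26 measured members passed 2-fold, beside 2.53% of all genes. The median was 1.70, or 0.84 with normexp. Krt6b, a stress keratin of injured epidermis and of the companion layer of the follicle, had levels of 3.47 at 12 h, -0.63 at 1 d and -0.13 at 2 d, and was 14.5-fold higher, or higher by 2.28 on the log2 scale at a dimmer probe. Its pairing partner Krt16 was 5.95-fold and Krt6a 3.23-fold higher, while Krt17, which resting and growing follicles also express, differed by 0.25. The cornified envelope proteins of the Sprr2 family were the highest of the list. Sprr2g had levels of 0.39 at 12 h, -3.13 at 1 d and -5.98 at 2 d, and was 30.8-fold higher. Its signal at 2 d was not well above background. Sprr2f was 27.8-fold and Sprr2d 18.1-fold higher, and Sprr2i was at least 11.0-fold higher. Sprr2 genes lie side by side on chromosome 3 and resemble each other. Among 28 pairs of their probes the longest shared run was 18 of 60 bases. Summed linear levels of the whole wound keratinocyte list were 237.0 at 12 h, 182.9 at 1 d and 180.7 at 2 d. The sum at 4 d was higher still, at 261.0.

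Genes of the late envelope and of skin defence were higher in part. 2310001H18Rik (now Lce3e), a late cornified envelope gene of the kind induced in repair, was at least 9.46-fold higher. Defb3, an inducible beta-defensin, was at least 3.24-fold higher, and the secreted protease inhibitor Slpi was 3.85-fold higher. Of 21 measured antimicrobial genes 7 were higher, beside 2.53% of all genes, and the list median was 0.07.

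Constitutive genes of the epidermis did not share this pattern. None of 30 measured genes of differentiated keratinocytes was at least 2-fold higher, 2 were lower, and the median difference was -1.03 from 1 d and -0.01 from 2 d. Lor, which encodes the envelope protein loricrin, had levels of 4.95 at 12 h, 6.95 at 1 d and 5.12 at 2 d. The late envelope gene Lce1m had levels of 2.35 at 12 h, 4.39 at 1 d and 2.27 at 2 d. In both genes 12 h and 2 d were close and 1 d stood higher, so the difference from the mean reflects 1 d. Flg, which encodes filaggrin, was the exception, with levels of -0.07 at 12 h, 1.80 at 1 d and 2.30 at 2 d, and was 4.35-fold lower. Krt15, a keratin of basal cells and of the follicle bulge, was 2.20-fold lower, the only 1 of 10 basal keratinocyte genes past 2-fold. Summed linear levels of the differentiated list were 165.8 at 12 h, 403.6 at 1 d and 156.8 at 2 d, and the part of the amount of epidermis in each sample in these values was not tested.

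**Figure D3:**
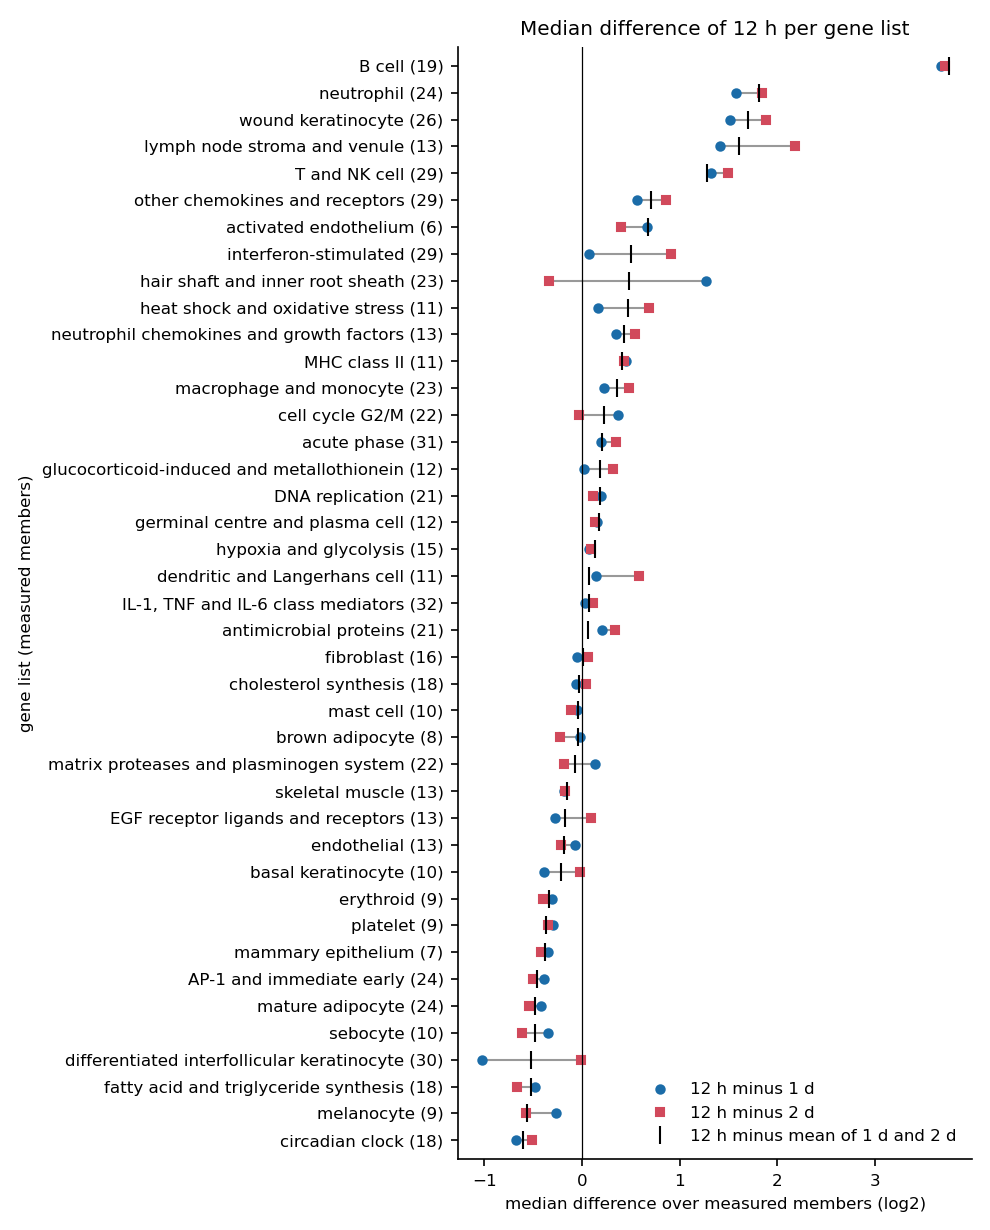
Median difference of 12 h per gene list, in log2 units, with the number of measured members in brackets. Circles are 12 h minus 1 d, squares 12 h minus 2 d and bars 12 h minus their mean. B cell, neutrophil, wound keratinocyte and lymph node lists lie to the right for both times, and the hair shaft, differentiated keratinocyte and interferon lists spread widely between the 2 times.

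Hair genes separated 1 d from both other times. For genes of the hair shaft and inner root sheath the median difference was 1.27 from 1 d and -0.34 from 2 d. Of 23 measured members 8 were counted as higher than the mean, yet none was at least 2-fold higher than both times, and with normexp 3 were counted. Krt33a, a hair shaft keratin, had levels of 0.55 at 12 h, -2.67 at 1 d and 0.47 at 2 d. Krt25, an inner root sheath keratin, had levels of 1.29 at 12 h, -2.02 at 1 d and 1.67 at 2 d. Their 1 d levels were low and their 12 h and 2 d levels were alike, so counts against the mean follow 1 d for this list.

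Interferon-stimulated genes separated 2 d instead. Their median difference was 0.07 from 1 d and 0.91 from 2 d, with 2 of 29 measured members counted as higher and none higher than both times. Isg15, a ubiquitin-like protein made in response to interferon, had levels of 3.46 at 12 h, 3.26 at 1 d and 1.31 at 2 d. The antiviral enzyme gene Oas3 had levels of -1.37 at 12 h, -1.71 at 1 d and -3.29 at 2 d. Pigment cell genes ran the other way, with Dct, an enzyme of melanin synthesis, at -0.83 at 12 h, -0.45 at 1 d and 1.23 at 2 d. The melanosome protein gene Pmel was 2.09-fold lower than the mean, and 6 of 9 melanocyte genes had their lowest level of the 7 plucked arrays at 12 h, against 10.6% of all genes.

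On the lower side, genes of the circadian clock were 5 of 18 lower and 1 higher, with a median of -0.61, beside 1.04% of all genes lower. The clock runs through the activators Arntl and Clock, which bind E-boxes with the sequence CACGTG and drive their own repressors of the Per and Cry families, the Nr1d repressors and output factors such as Dbp. Dbp had levels of 0.99 at 12 h, 3.27 at 1 d and 3.63 at 2 d, and was 5.52-fold lower. Gm129 (now Ciart), a clock repressor, had levels of -4.90 at 12 h, -2.87 at 1 d and -3.46 at 2 d, and was 3.31-fold lower. The lower members thus included outputs and repressors, and Nr1d2, Per3 and Nr1d1 were 2.21-fold, 2.20-fold and 2.07-fold lower. Arntl went the other way, with levels of 2.63 at 12 h, 1.5 at 1 d and 1.52 at 2 d, and was 2.18-fold higher. Its level at 12 h was the highest of the 7 plucked arrays, and those of Dbp, Nr1d2 and Per3 were the lowest. With normexp background correction 2 clock genes were lower. If the mice were plucked at the same hour, the 1 d and 2 d samples share an hour of day that the 12 h sample does not. The labels give no hour of sampling, so hour of day and time since plucking cannot be told apart. This holds for these genes and for every other difference at 12 h.

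The promoters of 2 of these genes are shown because they hold the sites through which the clock is known to act. Each runs from 250 bases before to 50 bases after the gene's start, from RefSeq in GRCm38.p6, 5′ to 3′ on the gene's own strand, with the searched motif in capitals. Ciart lies at chr3:95882179-95882478 on the minus strand and holds 3 E-boxes, CACGTG. Per3 lies at chr4:151044616-151044915 on the minus strand and holds 2 D-boxes, the site of Dbp and its relatives, searched as TTATGTAA or its reverse complement TTACATAA.
Ciart: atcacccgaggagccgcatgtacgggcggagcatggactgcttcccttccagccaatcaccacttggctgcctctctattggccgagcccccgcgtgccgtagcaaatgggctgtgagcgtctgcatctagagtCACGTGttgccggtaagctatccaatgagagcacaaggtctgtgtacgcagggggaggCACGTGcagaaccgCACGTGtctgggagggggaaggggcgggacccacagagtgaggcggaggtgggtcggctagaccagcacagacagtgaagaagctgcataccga
Per3: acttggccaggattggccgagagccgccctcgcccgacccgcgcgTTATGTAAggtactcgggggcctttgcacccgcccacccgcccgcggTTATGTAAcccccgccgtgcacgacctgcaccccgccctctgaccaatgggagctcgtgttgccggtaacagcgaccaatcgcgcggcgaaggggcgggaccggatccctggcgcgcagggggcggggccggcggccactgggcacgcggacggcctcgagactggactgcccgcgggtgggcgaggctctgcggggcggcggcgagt
Both strands were searched. Of the 18 clock genes 15 had a promoter in the table, and an E-box stood in 5 of them, Ciart, Bhlhe41, Cry1, Per1 and Tef, against 8.09% of all 27025 genes. The D-box stood in 1 of 15, Per3, against 1.11% of all genes. The E-box genes did not all differ in 1 direction, since Ciart differed by -1.73 and Cry1 by 0.69. A match describes these letters and says nothing of binding.

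**Figure D4:**
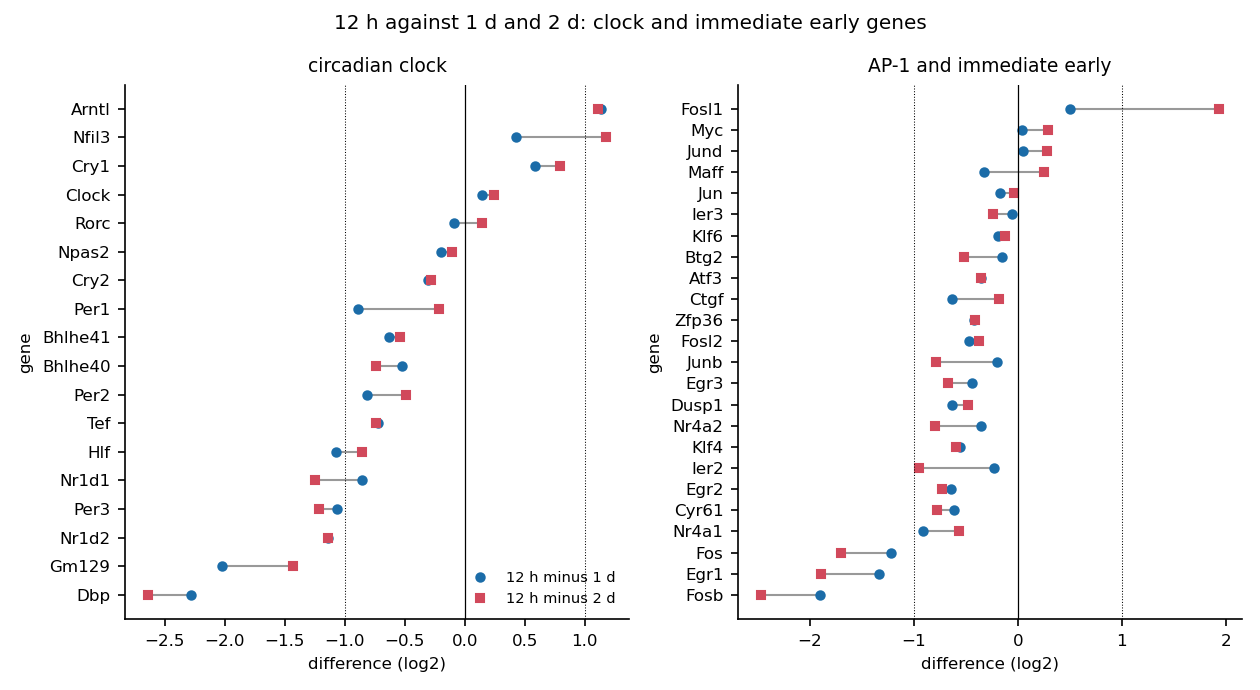
Difference of 12 h from 1 d (circles) and from 2 d (squares) for each measured clock gene, left, and each AP-1 and immediate early gene, right, in log2 units, with dotted lines at 2-fold. Dbp, Ciart (shown as Gm129), Nr1d2 and Per3 lie left of both lines and Arntl to the right, and on the right panel Fosb, Egr1 and Fos lie far left.

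Of 24 measured immediate early genes, which cells switch on within minutes of a stimulus, 3 were lower at 12 h and 1 was higher. Over all genes these shares were 1.04% and 2.53%, and the list median was -0.46. Fosb, a subunit of the AP-1 factor, had levels of 0.82 at 12 h, 2.72 at 1 d and 3.29 at 2 d, and was 4.55-fold lower. The early response factor Egr1 was 3.06-fold and the AP-1 subunit Fos 2.75-fold lower. All 3 were lower than both single times. The wound-associated subunit Fosl1 had levels of -1.75 at 12 h, -2.25 at 1 d and -3.68 at 2 d, and was 2.33-fold higher than the mean.

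Of 24 measured mature adipocyte genes 3 were lower, beside 1.04% of all genes. None was higher, and the median was -0.48. Against 1 d alone 1 member was lower, and against 2 d alone 6 were. Adipoq, which encodes the hormone adiponectin, had levels of 6.09 at 12 h, 6.90 at 1 d and 7.36 at 2 d, and was 2.06-fold lower. Thrsp, a regulator of lipogenesis, was 2.62-fold lower, and Adig, an adipocyte differentiation gene, 2.16-fold. Fabp4 differed by -0.34 and Lep, which encodes leptin, by 0.20. Adrb3, the fat-specific adrenergic receptor, was not in the list and was among the 12 largest differences on the lower side. It had levels of 2.59 at 12 h, 4.41 at 1 d and 4.56 at 2 d, and was 3.72-fold lower.

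The list of fatty acid and triglyceride synthesis had a median of -0.52, with 3 of 18 lower, beside 1.04% of all genes. Fasn, which encodes fatty acid synthase, had levels of 1.37 at 12 h, 2.16 at 1 d and 2.99 at 2 d, and was 2.31-fold lower. The elongase Elovl6 was 2.38-fold and the desaturase Scd1 2.20-fold lower. None of the 3 was 2-fold lower than 1 d alone, and the difference from 2 d was larger in each. Of 18 cholesterol synthesis genes only Insig1, a sterol sensor of the SREBP pathway, passed 2-fold, at 2.42-fold lower, and that median was -0.03. Summed linear levels of the adipocyte list were 1860 at 12 h, 2421 at 1 d and 2523 at 2 d, and the part of the amount of fat in each sample in these values was not tested.

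**Figure D5:**
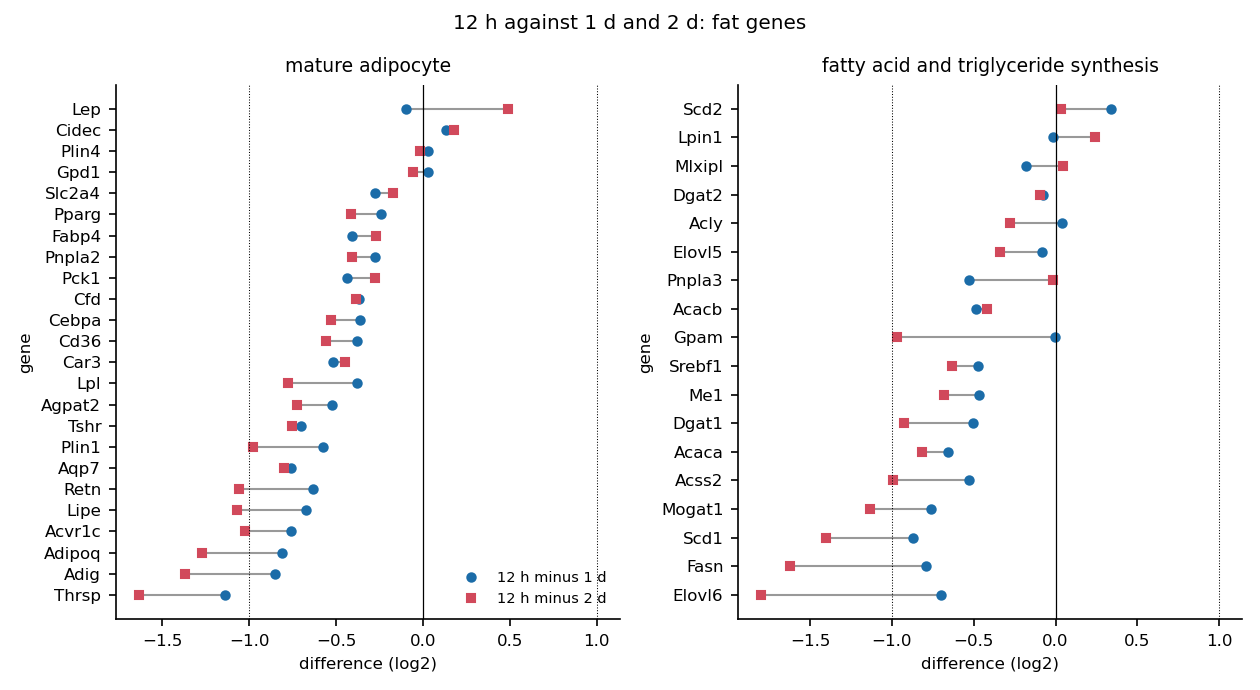
Difference of 12 h from 1 d (circles) and from 2 d (squares) for each measured mature adipocyte gene, left, and each gene of fatty acid and triglyceride synthesis, right, in log2 units, with dotted lines at 2-fold. Most genes lie left of 0, and squares lie farther left than circles for Elovl6, Fasn, Scd1, Adipoq and Thrsp.

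Slow muscle genes gave some of the largest differences on the lower side. Myh7, the slow myosin heavy chain, had levels of -0.25 at 12 h, 4.34 at 1 d and 1.41 at 2 d, and was 8.70-fold lower. The slow light chain genes Myl3 and Myl2 were 5.79-fold and 4.57-fold lower, and a second Myl2 probe gave a difference of -0.49. The 1 d and 2 d levels of Myh7 differed by more than the 12 h and 2 d levels did, so these genes varied among all 3 arrays. Myl3 and Myl2 were not in the skeletal muscle list, in which Myh7 alone of 13 members passed 2-fold, with Myh4 at -0.28, and the list median was -0.15. Whether the pieces of tissue held different muscles was not tested.

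Other genes on the lower side belonged to none of these groups. Dmbt1, a mucosal defence protein, had levels of 0.01 at 12 h, 2.68 at 1 d and 2.47 at 2 d, and was 5.91-fold lower. Chfr, a mitotic checkpoint gene, was 4.71-fold lower, Ido1, a tryptophan-degrading enzyme, 4.61-fold, and the tight junction gene Cldn8 3.98-fold. The 12 h level was the lowest of the 7 plucked arrays for Dmbt1, Chfr and Cldn8. Rab11fip1, a membrane recycling protein, was at least 3.91-fold and the collectin Colec10 at least 2.84-fold lower, since neither was well above background at 12 h.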

How the data were processed

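RNA was measured on Agilent one-colour arrays, 1 for each of 12 h, 1 d and 2 d after plucking. The deposited files hold the processed intensity of each spot, background-subtracted by Agilent Feature Extraction 10.5.1.1 per the file headers, with probe positions in mm9. From these, control spots and 13 probes flagged on an array were dropped, the spots of a probe averaged, and log2 intensity was taken relative to the 75th percentile of each array. Each gene name kept its brightest probe over the 3 arrays. A gene entered when 12 h, or both 1 d and 2 d, was well above background on the brighter side. Differences are 12 h minus the mean of 1 d and 2 d. A difference against a side not well above background is given as a bound, against the higher of the lowest signal above background and the gene's own. The side of 1 d and 2 d took a bound only when neither array had a probe of the gene well above background. Otherwise that side counted as measured.

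The gene lists and this comparison were chosen with earlier results of these data known, so counts describe these arrays. Genes named are the 12 largest differences outside both times in each direction that were measured on both sides, the 4 largest bounds, and the 4 members that differed most and the defining markers of each list described. Some genes that this rule also yields are not reported here. The comparison was tested on simulated data, which checks the calculation and not the spread between mice. Alternatives tried were normexp background correction, quantile normalization, another centring, other filters, probes, thresholds, and each single time. Python 3.11.15 with pandas 2.3.3, also for quantile normalization, and R 4.3.3 with limma 3.58.1 for normexp were used. The number of mice behind each sample and the hour of sampling are not given in the sources used here. The treatment text in the labels gives 7 to 8 weeks as the age at plucking.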

Additional observations from a re-analysis of the deposited data

How the results depend on the processing

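The counts depended on the background correction and on the fold threshold. Main counts were 745 higher, 307 lower and 676 outside both times. With normexp background correction and an offset of 50 they were 329, 92 and 296. At 1.5-fold they were 1562, 1628 and 1969, and at 3-fold 351, 43 and 271. Requiring signal well above background on all 3 arrays left 458 higher genes, and no filter on background gave 822 lower. Against 2 d alone 625 genes were lower. Higher genes made up 70.8% of the counted genes in the main setting, 78.1% with normexp, 77.4% after quantile normalization, 77.3% with another centring, 64.9% with signal on all 3 arrays, 51.8% with no filter, 63.2% against 1 d alone and 59.5% against 2 d alone. The cause of these changes was not tested, beyond the fewer or more genes that filters and thresholds admit.

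With normexp the list medians were 2.48 for B cells, 0.87 for neutrophils and 0.84 for wound keratinocytes. Against 2 d alone 3 counted hair keratins turned negative, with Krt26 at -0.36, Krt25 at -0.38 and Krt35 at -0.27. Of 1611 values of single genes over the alternatives, 1261 moved by no more than 0.13 on the log2 scale, 347 moved by more and 3 were those hair keratins. A changed background filter cannot alter a gene's difference, so all 179 genes stayed the same under each filter by construction. Another centring shifts all genes equally. With normexp 80 of the 179 moved, against 1 d alone 118, and against 2 d alone 115 besides the 3 hair keratins. Another 8 values, of genes not counted, also took the other sign, such as Lce1m at 0.08 against 2 d alone and Krt14 at -0.17 against 1 d alone. Low folds are limited by signal over background. No paired analysis was possible because each time has a single array, and for the same reason no replicate could be left out.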

Other observations

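The other gene lists, given here, had at most 2 counted members each at 12 h. Over all genes 2.53% were higher and 1.04% lower. The lists are short, so 1 counted member already exceeds these shares. Of 11 genes of heat shock and oxidative stress only Srxn1, which repairs oxidised peroxiredoxins, was at least 2-fold higher, at 2.27-fold. Srxn1 differed by 0.86 from 1 d and 1.51 from 2 d (log2), and the list median was 0.47. Of 12 glucocorticoid-induced and metallothionein genes 2 were higher than the mean and none than both single times, with a median of 0.18. The mast cell tryptase gene Tpsab1 had levels of -2.62 at 12 h, -4.15 at 1 d and -4.23 at 2 d, and was 2.96-fold higher, the only 1 of 10 mast cell genes past 2-fold. Dendritic and Langerhans cell genes had 2 of 11 higher and a median of 0.07. Of these 2 only Ccl22 was at least 2-fold higher than both single times, and its bound was only 1.59-fold.

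Of 21 DNA replication genes the helicase subunit Mcm5 alone was higher, at 2.08-fold, and none of 22 genes of the G2 and M phases differed by 2-fold, with a median of 0.22. None of 16 fibroblast genes, 13 endothelial genes, 13 EGF receptor ligands and receptors, 9 erythroid genes, 8 brown adipocyte genes or 7 mammary epithelium genes differed by 2-fold. Their medians were 0.01, -0.19, -0.18, -0.34, -0.04 and -0.38. Of 15 hypoxia and glycolysis genes Pfkfb3, a regulator of glycolysis, was 2.00-fold lower. Of 10 sebocyte genes Acsbg1, and of 9 platelet genes Gp9, differed by more than 2-fold, at -1.09 and -1.10 on the log2 scale. A second Acsbg1 probe gave -0.41. All these counts rest on 1 array per time.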
